A study of Mus musculus with 36 samples.

Results

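The genes described here form the activating arm of the mammalian circadian clock and the stabilising loop attached to it: Arntl (BMAL1), Clock and Npas2 on one side, and the nuclear receptors Nr1d1 (REV-ERBα), Nr1d2 (REV-ERBβ) and Rora (RORα) on the other. Members were taken by name, as every array probe whose gene name in the scanner files was one of these 6 symbols. That gave 15 probes of 56605 non-control probes on the array, and 12 of the 15 were bright enough to be tested, which left 5 of the 6 genes with a tested probe. The probe of Npas2 was not well above background on any array.

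Liver RNA came from 36 male mice 11 weeks old on a C57BL/6J background, fed chow freely and given no other treatment, per the labels. Mice of the IRLKO genotype had lost Insr, the insulin receptor gene, from hepatocytes after tamoxifen induction; they were made by crossing mice with LoxP sites around exon 4 of Insr to TTR-CreTam mice, in which the transthyretin promoter drives Cre; IRLWT were their controls. Livers were collected at zeitgeber time (ZT, hours after lights on) 8, 12 and 16, with lights off at ZT12, giving 6 groups of 6 mice. The labels used here do not say when tamoxifen was given or whether controls carried Cre, and liver cells other than hepatocytes keep their receptor. The comparisons address whether loss of hepatocyte insulin signalling alters the level of these clock genes around the start of the active phase, and whether it alters their change with time.

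BMAL1 pairs with CLOCK, or with its relative NPAS2, and the pair binds E-box elements to switch on the Per and Cry repressors, the REV-ERB genes and many outputs. The REV-ERB proteins then repress Arntl, Clock and Npas2 through ROR response elements, while ROR proteins compete for the same elements and activate them. In mouse liver the REV-ERB transcripts are therefore known to peak in the day and Arntl in the late night, close to antiphase.

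The upstream sequences of 3 members whose transcripts moved most with time are shown because E-boxes and ROR elements are the sites through which the loop acts. All are RefSeq promoter entries of GRCm38.p6, cut to the 250 bases before the annotated start and written 5′ to 3′ on the gene's strand, with motif matches in capitals. The Arntl entry is chr7:113207215-113207464 (plus strand), the Nr1d1 entry chr11:98775378-98775627 (minus strand) and the Nr1d2 entry chr14:18239107-18239356 (minus strand).
Arntl: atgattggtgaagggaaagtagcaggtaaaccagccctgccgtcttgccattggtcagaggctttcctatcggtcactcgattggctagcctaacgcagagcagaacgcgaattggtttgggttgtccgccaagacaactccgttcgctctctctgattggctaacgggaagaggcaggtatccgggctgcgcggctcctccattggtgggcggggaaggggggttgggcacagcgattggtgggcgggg
Nr1d1: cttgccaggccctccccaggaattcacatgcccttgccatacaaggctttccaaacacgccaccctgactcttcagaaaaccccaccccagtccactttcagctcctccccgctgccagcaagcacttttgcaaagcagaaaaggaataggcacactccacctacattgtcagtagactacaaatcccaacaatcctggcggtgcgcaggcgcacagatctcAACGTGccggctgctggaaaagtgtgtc
Nr1d2: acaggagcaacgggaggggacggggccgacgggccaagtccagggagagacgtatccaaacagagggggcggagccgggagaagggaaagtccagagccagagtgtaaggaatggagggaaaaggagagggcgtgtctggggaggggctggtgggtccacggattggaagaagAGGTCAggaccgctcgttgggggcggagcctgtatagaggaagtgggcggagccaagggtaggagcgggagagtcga

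Both strands were searched for the E-box CACGTG, the variant E-box CACGTT, the REV-ERB/ROR core site AGGTCA, its tandem form RevDR2 and the D-box TTANGTAA. Nr1d1 held the variant E-box once, on the minus strand 28 to 23 bases before the start, and 3.85% of all 32851 promoter windows of this length hold these letters. Nr1d2 held the core site once, 77 to 72 bases before the start, as did 14% of all windows. None of the other motifs was found in these windows, and the Arntl window held none of the 5, which says only that these letters are not there.

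Among the 9 entries of the 6 genes, the only further match was 1 core site, in 1 of 3 Clock entries, on the minus strand 119 to 114 bases before that start. CACGTG was in 6.02% of all windows, the D-box in 2.06% and RevDR2 in 0.00913%.

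The measurement rests on what each 60-base probe reads. Probe positions are those of the scanner files, on mm9, and the exon or untranslated region each probe falls in is not annotated here. Probes of Arntl and Nr1d1 are shown because their signals were not above background on some arrays at the trough. For Arntl the choice of probe decides the result there, while only 1 probe reads Nr1d1. The brightest Arntl probe lies at chr7:120456978-120457037, the junction probe spans chr7:120435023-120436706, the dimmest, called the third probe below, lies at chr7:120439030-120439089, and the Nr1d1 probe spans chr11:98630526-98631028 on the minus strand. The 503 bases of genome under the 60-base Nr1d1 probe, and the 1684 under the second Arntl probe, show that both are split by a gap on the genome. Each of the 4 sequences has at least 1 of 3 forward reading frames free of stop codons.
Arntl brightest probe: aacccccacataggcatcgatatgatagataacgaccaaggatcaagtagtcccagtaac
Arntl junction probe: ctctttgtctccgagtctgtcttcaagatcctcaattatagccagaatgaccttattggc
Arntl dimmest probe: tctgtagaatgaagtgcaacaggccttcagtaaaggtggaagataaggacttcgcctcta
Nr1d1 probe: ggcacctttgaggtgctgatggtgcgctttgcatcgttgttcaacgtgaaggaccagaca

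Levels below are log2 of the background-corrected, processed signal relative to the array's own 75th percentile, so that 0 is the 75th percentile and a step of 1 is a 2-fold change. Levels of different probes are not comparable with each other. Between 53.7% and 63.1% of spots were well above background on each array, the 75th percentile signal was 311 to 526, and no spot was saturated. Insr itself was lower in knockouts at each time, with log2 differences of -1.77, -1.88 and -1.65 (limma adjusted p 1.37e-11, 2.82e-12 and 3.58e-11), with no overlap of the 6 mice against 6; whether its probe reads the deleted exon was not checked. All 6 hepatocyte markers were well above background on every array, and the pancreas markers Cpa1, Prss1 and Pnlip on none. Knockout ZT8 replicate 3 stood apart from its group in several genes, and results that rest on it are given with and without it. In bulk liver, fewer cells of a type and less RNA per cell cannot be told apart.

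**Figure D1:**
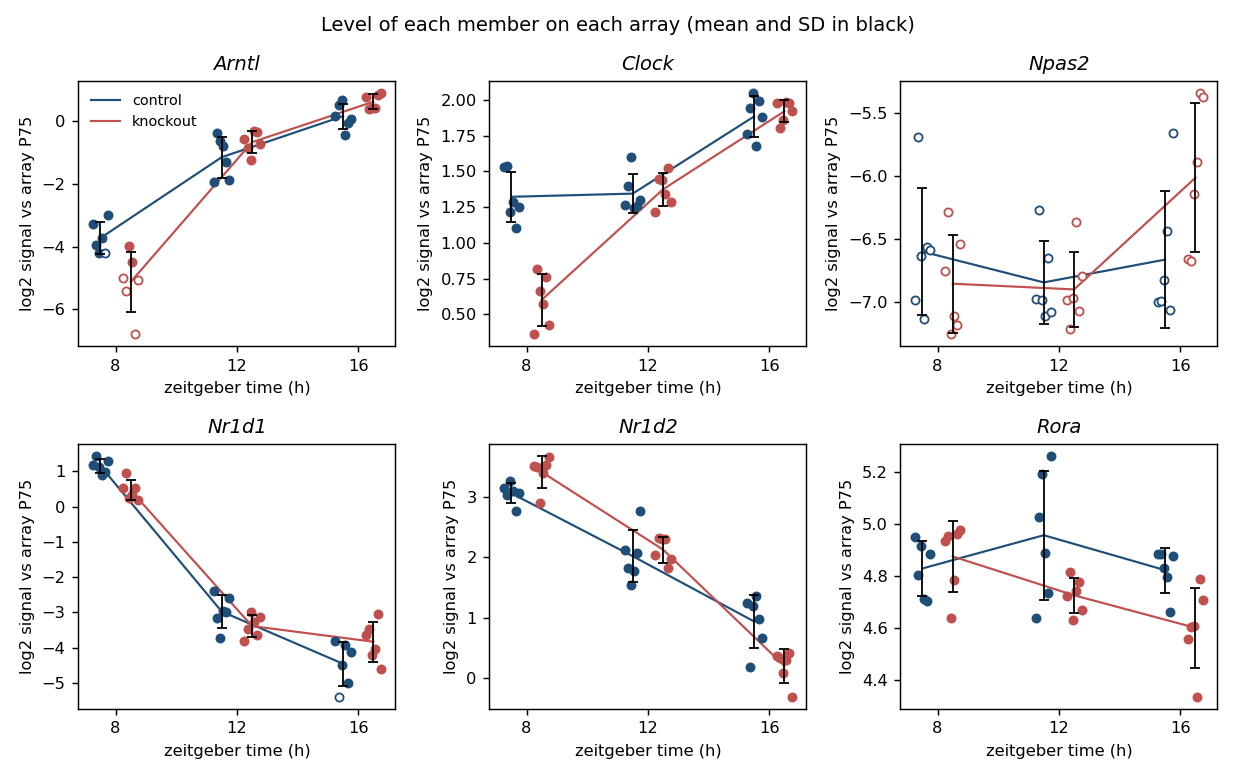
Level of the 6 members on each of the 36 arrays (log2 signal against the array's 75th percentile) by zeitgeber time, with controls in blue and knockouts in red; filled points were well above background, open points were not, and black bars are mean and SD of 6 mice. Arntl rose from a group mean of -3.72 to 0.17 in controls and from -5.12 to 0.63 in knockouts while Nr1d1 and Nr1d2 fell, Rora stayed between 4.60 and 4.96, and every Npas2 point is open.

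Arntl, which encodes a partner of CLOCK and NPAS2, climbed from its lowest level at ZT8 to its highest at ZT16 in both genotypes. In controls the ZT8 levels ran from -4.21 to -2.99 (median -3.84), the ZT12 levels from -1.93 to -0.36 (median -1.04) and the ZT16 levels from -0.42 to 0.70 (median 0.13). In knockouts they ran from -6.79 to -3.98 (median -5.04) at ZT8, -1.22 to -0.31 (median -0.64) at ZT12 and 0.40 to 0.91 (median 0.60) at ZT16. Knockouts were thus the lowest group at ZT8 and the highest at ZT16, and the genotypes overlapped at each time. The order of group means was knockout ZT8, control ZT8, control ZT12, knockout ZT12, control ZT16 and knockout ZT16, and the genotypes next to each other at ZT12 and at ZT16 did not differ beyond their spread.

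At ZT8 Arntl was 2.65-fold lower in knockouts (log2 difference -1.41, SE 0.33, limma adjusted p 0.00128), a size that 2.60% of all tested probes exceeded. The difference was negative in each of the 3 wash batches, from -3.05 to -0.62. The value of -3.05 rests on 1 knockout mouse, whose probe was not above background. It was measured close to the detection limit: the probe was well above background in 5 of 6 controls and 2 of 6 knockouts. With normexp background correction the difference was -0.29 (adjusted p 0.173), and in the authors' processed table -0.46 (adjusted p 0.0667), so the call did not hold with either; over all alternatives the adjusted p ranged from 0.000166 to 0.173. Without knockout ZT8 replicate 3, the highest of its group at -3.98, the difference was -1.68 (adjusted p 0.00012).

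Arntl did not pass at the later times, with 0.49 (SE 0.33, adjusted p 0.251) at ZT12 and 0.48 (SE 0.33, adjusted p 0.258) at ZT16, although both were positive in all 3 wash batches. Its 2 other probes were close to each other at ZT12, at 0.50 and 0.48, and at ZT16, at 0.75 and 0.55, but only the junction probe passed at ZT16 (adjusted p 0.0346). The third probe passed there with normexp (0.34, adjusted p 0.0444) and in the authors' processed table (0.44, adjusted p 0.0286). The junction call was lost without any 1 of knockout ZT16 replicates 1, 2, 4 and 6 or control ZT16 replicates 1, 3 and 4 (0.63 to 0.74, adjusted p 0.0560 to 0.0906), and with quantile normalization or no filter on dim probes. At ZT8 the junction probe gave -0.61 (adjusted p 0.0932; -0.74 and 0.0487 without knockout ZT8 replicate 3), and the third probe 0.08 (adjusted p 0.896), being above background on none of 6 control arrays and 1 of 6 knockout arrays.

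Between ZT8 and ZT12 Arntl rose 5.99-fold in controls (2.58, SE 0.33, adjusted p 1.87e-06) and by 4.48 on the log2 scale in knockouts (SE 0.34, adjusted p 2.14e-10). Since 4 of the 6 knockout arrays at ZT8 were not above background, the size of the knockout rise is uncertain: it was 1.90 with normexp (adjusted p 7.56e-10) and 2.62 in the authors' processed table (adjusted p 1.25e-10). The control rise was 1.33 with normexp (adjusted p 2.56e-07) and 1.81 in the authors' processed table (adjusted p 5.36e-08). Neither genotype's ZT8 mice overlapped its ZT12 mice. A further rise to ZT16 was 1.29 in controls (adjusted p 0.0263) and 1.28 in knockouts (adjusted p 0.00865). The control step no longer passed without any 1 of control ZT12 replicates 1, 5 and 6 or control ZT16 replicates 2, 3 and 6 (1.11 to 1.29, adjusted p 0.0522 to 0.0952), or when only the 2 groups compared were fitted. From the third probe, dark in every control mouse at ZT8, the control rise was at least 3.47-fold by ZT12 and at least 7.99-fold by ZT16.

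The brightest Arntl probe rose more in knockouts over the first interval. The genotype effect at ZT12 exceeded that at ZT8 by 1.89 (SE 0.47, adjusted p 0.0422), and the change in genotype effect from ZT12 to ZT16 was -0.0047 (SE 0.46, adjusted p 0.998). The first of these was 1.11 on the junction probe (adjusted p 0.202) and 0.40 on the third probe (adjusted p 0.83), and passed on neither. The call of the brightest probe ended under 6 alternatives, among them the mean of all 3 probes (1.14, adjusted p 0.117) and normexp (0.57, adjusted p 0.272). It also ended without any 1 of 17 arrays: knockout ZT8 replicates 1, 2, 5 and 6, knockout ZT12 replicates 1, 2, 4, 5 and 6, control ZT8 replicates 1, 2, 4 and 6, control ZT12 replicates 1, 5 and 6, and control ZT16 replicate 1 (1.43 to 1.93, adjusted p 0.0512 to 0.0943).

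Clock, which encodes the histone acetyltransferase partner of BMAL1, was lower in knockouts at ZT8 on its brightest probe, and did not pass at the later times. Its ZT8 levels ran from 1.11 to 1.54 in controls (median 1.27) and from 0.36 to 0.82 in knockouts (median 0.62). The corresponding ranges were 1.24 to 1.60 (median 1.28) and 1.21 to 1.52 (median 1.39) at ZT12, and 1.68 to 2.05 (median 1.91) and 1.80 to 1.99 (median 1.95) at ZT16. Every knockout lay below every control at ZT8, the sole genotype comparison of the 5 brightest probes without overlap; 8.73% of all tested probes had knockouts wholly below controls at this time.

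The ZT8 difference of Clock was 1.62-fold (log2 -0.70, SE 0.08, limma adjusted p 1.06e-07), a size that 13.6% of all tested probes exceeded. It lay between -0.81 and -0.58 in the 3 wash batches. It was -0.71 without knockout ZT8 replicate 3. At ZT12 and ZT16 the differences were 0.01 (95% interval -0.16 to 0.18) and 0.03 (-0.14 to 0.20). Both other tested probes were lower in knockouts at ZT8 as well, at -0.42 (adjusted p 0.000113, no overlap) and -0.39 (adjusted p 0.007, overlapping), the latter not passing with normexp or when only the groups compared were fitted. At ZT16 the second probe was lower in knockouts, at -0.31 (adjusted p 0.00272), unlike the brightest, and lost the call only when the 2 groups were fitted alone (adjusted p 0.0507). In the 3 wash batches that difference ran from -0.49 to 0.02, the latter against 1 control mouse. The third probe gave -0.22 (adjusted p 0.117), which did not pass; with normexp (-0.19, adjusted p 0.0387) and in the authors' processed table (-0.20, adjusted p 0.0487) it did.

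Clock's path through the day depended on the probe in controls. On the brightest probe control levels differed by 0.02 between ZT8 and ZT12, which did not pass (SE 0.08, adjusted p 0.907), and rose by 0.55 to ZT16 (adjusted p 0.000246). On the third probe, designed to a cDNA (chr5:76664578-76664637, minus strand, mm9) and lying apart from the other probes (chr5:76639992-76640051 and chr5:76641377-76641436), the control rise from ZT8 to ZT12 was 2.38-fold (1.25, SE 0.11, adjusted p 2.91e-09). The second probe gave 0.18 (adjusted p 0.148). With the mean of all Clock probes in place of the brightest, the control rise over this interval passed (0.48, adjusted p 1.8e-05). In knockouts the 3 probes rose by 0.73, 0.60 and 1.66 over the same interval (adjusted p 6.41e-07, 7.39e-06 and 3.22e-11). The order of group means on the brightest probe was knockout ZT8, control ZT8, control ZT12, knockout ZT12, control ZT16 and knockout ZT16, and control ZT8, control ZT12 and knockout ZT12 had means of 1.32, 1.34 and 1.37.

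Another Clock probe was well above background on 1 of 36 arrays and was not tested. The genotype effect on Clock at ZT12 exceeded that at ZT8 by 0.71 (SE 0.12, adjusted p 0.00243), and at ZT16 it exceeded that at ZT8 by 0.73 (SE 0.12, adjusted p 0.000156). For the second probe the first of these was 0.42 (adjusted p 0.0638; 0.46 and 0.0227 without knockout ZT8 replicate 3, 0.42 and 0.044 without control ZT16 replicate 6) and the second 0.11 (adjusted p 0.627), and for the third probe 0.41 (adjusted p 0.25) and 0.17 (adjusted p 0.601), so that only the brightest probe passed.

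Npas2, the paralog of Clock that can replace it in the heterodimer, has 1 probe on the array (chr1:39418941-39419000, plus strand, mm9). It was not well above background on any of the 36 arrays. Its values lay between -7.14 and -5.66 in controls and between -7.25 and -5.35 in knockouts, where the highest were those of the ZT16 knockouts (-6.67 to -5.35, median -6.02). No fold is given for values below background.

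Nr1d1, the haem-sensing repressor of Arntl, had the wider swing of the REV-ERB pair. Control levels were 0.90 to 1.44 at ZT8 (median 1.16), -3.74 to -2.39 at ZT12 (median -2.98) and -5.39 to -3.81 at ZT16 (median -4.31). Knockout levels were 0.19 to 0.97 at ZT8 (median 0.42), -3.81 to -2.99 at ZT12 (median -3.38) and -4.60 to -3.04 at ZT16 (median -3.84). Controls held both the highest and the lowest group mean, knockouts lay inside them, and the genotypes overlapped at every time. At ZT16 knockout values overlapped those of knockouts at ZT12.

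The control fall of Nr1d1 from ZT8 to ZT16 was 48.6-fold (-5.60, SE 0.25, limma adjusted p 8.43e-16), and in knockouts 19.9-fold (-4.32, SE 0.25, adjusted p 8.76e-14). With normexp these falls were -3.58 and -2.88 (adjusted p 4.67e-22 and 4.56e-19), and in the authors' processed table -4.29 and -3.43 (adjusted p 7.03e-20 and 2.21e-17). Most of the fall came before ZT12, at -4.13 in controls (adjusted p 3.55e-12) and -3.89 in knockouts (adjusted p 1.92e-11). From ZT12 to ZT16 controls fell by 1.47 (adjusted p 0.00097; 0.0607 when only these groups were fitted), and the knockout change of -0.42 did not pass (adjusted p 0.338). With normexp the 2 steps were -0.50 (adjusted p 0.00812) and -0.13 (adjusted p 0.572). The difference between these 2 steps, 1.05 (SE 0.36), did not pass (adjusted p 0.148; 1.24 and 0.045 with array weights), but over ZT8 to ZT16 the genotype effect moved by 1.29 (SE 0.36, adjusted p 0.0201; 0.70 and 0.00324 with normexp).

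By genotype, Nr1d1 was 1.60-fold lower in knockouts at ZT8 (-0.67, SE 0.25, limma adjusted p 0.0385), a size that 14.5% of all tested probes exceeded. The difference lay between -0.75 and -0.61 in the 3 wash batches. This call was lost without any 1 of 7 arrays, knockout ZT8 replicates 3, 4, 5 and 6 or control ZT8 replicates 1, 2 and 6 (-0.68 to -0.62, adjusted p 0.0504 to 0.0798), with quantile normalization and without the filter on dim probes. The differences were -0.43 at ZT12 (adjusted p 0.178; -0.30 and 0.0318 with normexp) and 0.61 at ZT16 (adjusted p 0.055). The ZT16 value ranged from -0.28, against 1 control mouse, to 1.02 between wash batches. It fell to 0.07 with normexp (limma adjusted p 0.623), and 1 of the 6 control arrays was not above background. It passed without a wash batch term, with slide as a random block, with array weights and without any 1 of 8 arrays: control ZT12 replicates 1 and 3, control ZT16 replicates 1, 4 and 6, knockout ZT8 replicate 2 and knockout ZT16 replicates 3 and 6 (0.61 to 0.77, adjusted p 0.0165 to 0.0494).

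Nr1d2, which shares targets with Nr1d1, fell over the same hours from a brighter signal and with a smaller fold. Control levels were 2.76 to 3.25 at ZT8 (median 3.08), 1.54 to 2.77 at ZT12 (median 1.95) and 0.20 to 1.35 at ZT16 (median 1.09). Knockout levels were 2.89 to 3.65 at ZT8 (median 3.50), 1.82 to 2.32 at ZT12 (median 2.17) and -0.30 to 0.43 at ZT16 (median 0.32). Here the knockouts held the highest and the lowest group mean, the reverse of Nr1d1. At ZT16 only 1 control, at 0.20, lay inside the knockout range.

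At ZT16 Nr1d2 was 1.62-fold lower in knockouts (-0.70, SE 0.17, limma adjusted p 0.00188), a size that 14.9% of all tested probes exceeded. It was lower in each wash batch, from -0.82 to -0.52. The 2 other probes gave -0.77 (adjusted p 0.00206) and -0.89 (adjusted p 0.00273). No alternative and no single array removed these calls. At ZT8 the 3 probes were higher in knockouts by 0.36, 0.42 and 0.34, none of which passed (adjusted p 0.113, 0.0974 and 0.258). For the brightest probe the ZT8 value was 0.44 without knockout ZT8 replicate 3 (adjusted p 0.0572), and it passed with quantile normalization, in the authors' processed table and when only the groups compared were fitted. ZT12 differences were 0.10 to 0.12 and did not pass.

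From ZT8 to ZT16 Nr1d2 fell 4.44-fold in controls (-2.15, SE 0.17, adjusted p 1.07e-10) and 9.22-fold in knockouts (-3.20, SE 0.17, adjusted p 2.24e-14). In neither genotype did ZT8 and ZT16 mice overlap, and the falls differed by -1.05 (SE 0.25, adjusted p 0.0053), with -1.19 (adjusted p 0.00497) and -1.23 (adjusted p 0.0137) on the other probes. From ZT12 to ZT16 the step was -1.11 in controls (adjusted p 0.00034; 0.0699 when only these groups were fitted) and -1.92 in knockouts (adjusted p 1.89e-08). The difference of those steps was -0.80 (SE 0.24, adjusted p 0.0922), and it passed without control ZT12 replicate 6 or control ZT16 replicate 2 (-0.97 to -0.95, adjusted p 0.0186 to 0.0232). Nr1d1 and Nr1d2 thus differed in sign in the ZT16-against-ZT8 genotype test, at 1.29 and -1.05.

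**Figure D2:**
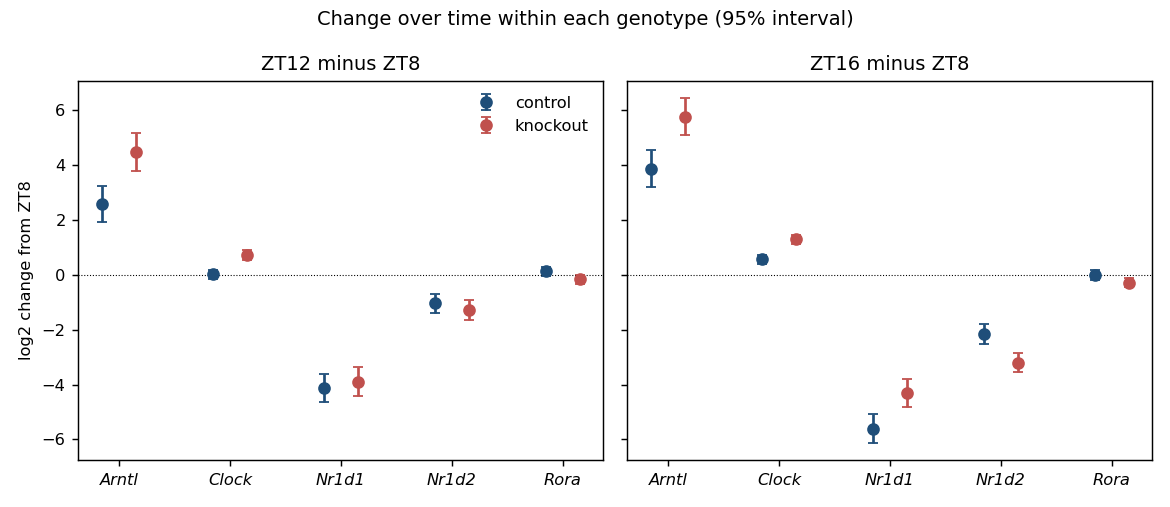
Change in log2 level from ZT8 to ZT12 (left) and from ZT8 to ZT16 (right) for the 5 tested members in controls (blue) and knockouts (red), with limma's 95% intervals. From ZT8 to ZT16 Arntl rose by 3.87 in controls and 5.76 in knockouts, Nr1d1 changed by -5.60 and -4.32, and Nr1d2 by -2.15 and -3.20. Arntl was well above background on only 2 of 6 knockout arrays at ZT8, so the size of its knockout rise is uncertain.

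Rora, the activator that competes with the REV-ERB proteins, had the narrowest range of group means among the tested members. Control levels were 4.70 to 4.95 at ZT8 (median 4.85), 4.64 to 5.26 at ZT12 (median 4.96) and 4.66 to 4.89 at ZT16 (median 4.85). Knockout levels were 4.64 to 4.98 at ZT8 (median 4.94), 4.63 to 4.81 at ZT12 (median 4.73) and 4.34 to 4.79 at ZT16 (median 4.61). All 6 ranges overlapped a neighbour's, and the group means spanned 0.36.

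In controls no step of Rora passed, with changes of 0.13, -0.14 and -0.02 for ZT12 minus ZT8, ZT16 minus ZT12 and ZT16 minus ZT8. In knockouts Rora fell by 0.28 from ZT8 to ZT16 (SE 0.09, limma adjusted p 0.012), and the second tested probe also fell by 0.28 (adjusted p 0.0263). The first of these no longer passed without knockout ZT16 replicate 4 (-0.22, adjusted p 0.0556) or when only the 2 groups were fitted (adjusted p 0.0741). The second no longer passed without any 1 of knockout ZT8 replicates 2, 5 and 6 or knockout ZT16 replicates 3 and 4 (-0.26 to -0.22, adjusted p 0.0562 to 0.0981), nor under 5 alternatives, with adjusted p up to 0.0883. The difference between the genotypes in this change was -0.27 (SE 0.12) and did not pass (adjusted p 0.184).

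Between genotypes Rora was lower in knockouts at ZT12, at -0.24 (SE 0.09, limma adjusted p 0.0261), a size that 55.9% of all tested probes exceeded. The difference ran from -0.47, resting on 1 knockout mouse, to -0.09 in the 3 wash batches. The call ended under 5 alternatives, including quantile normalization, and without control ZT12 replicate 3 or 6 or knockout ZT12 replicate 6 (-0.23 to -0.18, adjusted p 0.0506 to 0.0854). The second probe gave -0.14 (adjusted p 0.241; -0.23 and 0.046 without control ZT12 replicate 5). At ZT16 the values were -0.21 (adjusted p 0.0509) and -0.10 (adjusted p 0.433). The first of these passed under 7 alternatives, and without any 1 of knockout ZT8 replicate 3, knockout ZT16 replicates 5 and 6, control ZT12 replicates 1, 3, 5 and 6 or control ZT16 replicate 5 (-0.24 to -0.21, adjusted p 0.0298 to 0.0482). At ZT8 the second probe was at 0.21 (adjusted p 0.0913; 0.27 and 0.0311 without knockout ZT8 replicate 3). Another Rora probe, designed to another transcript variant (chr9:68511835-68511894, plus strand, mm9), was not well above background on any array.

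**Figure D3:**
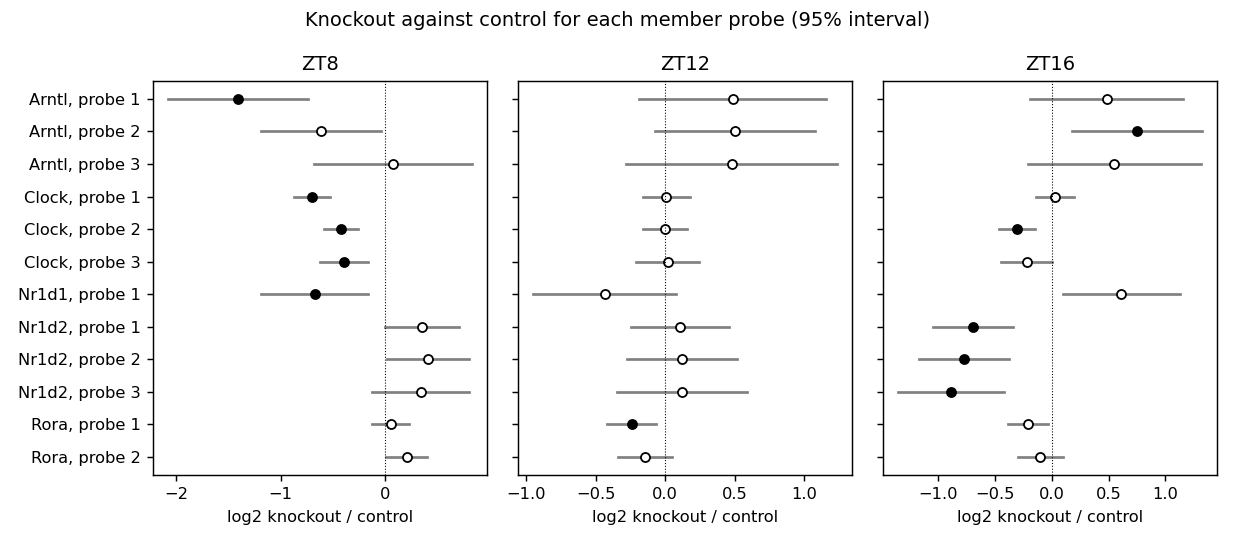
Log2 ratio of knockout to control at each time for the 12 tested member probes, with limma's 95% intervals; probe 1 of each gene is the brightest, and filled points passed an adjusted p of 0.05. Clock probes all lie below 0 at ZT8, the 3 Nr1d2 probes lie at 0.34 to 0.42 at ZT8 and at -0.89 to -0.70 at ZT16, and the 3 Arntl probes spread from -1.41 to 0.08 at ZT8.

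Counted over the 5 tested genes by their brightest probe, 3 were called between genotypes at ZT8 (Arntl, Clock and Nr1d1, all lower), against 33.6% of all 34769 tested probes called in either direction and 17.4% called lower. At ZT12 Rora alone was called, lower, against 39.2% of all probes called and 20.8% called lower. At ZT16 Nr1d2 alone was called, lower, against 37.8% called and 19.1% called lower. These counts at ZT12 and ZT16 are under the shares called in either direction and near the shares called lower, and are no result about the genes as a group. The median absolute genotype difference over all probes was 0.25, 0.28 and 0.28 at the 3 times.

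Over time, in controls, 3 of 5 were called from ZT8 to ZT12 (13.6% of all probes), 4 from ZT12 to ZT16 (2.99%) and 4 from ZT8 to ZT16 (25.5%); Arntl rose and both REV-ERB genes fell in all 3, and Clock rose in the last 2. In knockouts 4 were called from ZT8 to ZT12 (12.3%), 3 from ZT12 to ZT16 (11.3%) and 5 from ZT8 to ZT16 (28.5%). Fitted on its own groups alone, the control ZT12-to-ZT16 comparison called 1 member.

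In the tests of whether the genotype effect changed, 2 of 5 were called for ZT12 against ZT8 (Arntl and Clock, both more positive at ZT12; 0.949% of all probes). For ZT16 against ZT8 there were 4 (Arntl, Clock and Nr1d1 more positive, Nr1d2 more negative; 8.78% of all probes). With normexp the ZT16-against-ZT8 value of Arntl was 0.66 (limma adjusted p 0.0614). It was 1.36 on the junction probe (adjusted p 0.0277) and 0.47 on the third probe, which did not pass (adjusted p 0.681). The junction call was lost without any 1 of 5 arrays (1.18 to 1.32, adjusted p up to 0.0635). For ZT16 against ZT12 limma called none (1.49% of all probes), with Nr1d1 and Nr1d2 at unadjusted p 0.00621 and 0.00248. Across the 3 times together 4 of 5 were called by limma's F test, all but Rora (7.24% of all probes). Within this, Nr1d1 (adjusted p 0.0394) did not pass without any 1 of knockout ZT8 replicates 4, 5 and 6, knockout ZT16 replicates 1, 2, 4 and 5, control ZT8 replicates 1, 2 and 6, control ZT12 replicate 6 or control ZT16 replicates 2, 3 and 5 (adjusted p 0.0502 to 0.0964), nor with quantile normalization (0.0698) or no filter on dim probes (0.0728). Arntl (0.00922) did not pass with normexp or in the authors' processed table, where the adjusted p reached 0.108. On other probes, limma's F test did not pass for Arntl (adjusted p 0.0551 on the junction probe, 0.849 on the third) or for the third Clock probe (0.239). The second Clock probe passed (0.037), but not without any 1 of 15 arrays (0.0506 to 0.0713). The other Nr1d2 probes passed (0.0116 and 0.0276), the last of them not without any 1 of 4 arrays (0.053 to 0.0686).

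Mice of one group also differed from each other, and some members did so together. Over the deviations of the 36 arrays from their group means, Nr1d1 and Nr1d2 had a Pearson r of 0.65 (permutation p 0.00029, adjusted 0.0029 over 10 pairs of members) and a Spearman rho of 0.57 (permutation p 0.00174, adjusted 0.0174). Within wash batches r was 0.70 to 0.77, and without the 2 arrays farthest from the median of Nr1d1 it was 0.57. Arntl deviated against Nr1d2, with r -0.45 (permutation p 0.00859, adjusted 0.0429; -0.43 without 2 arrays; -0.76 to -0.23 within wash batches), but rho, -0.41, did not pass (permutation p 0.0191, adjusted 0.0709).

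Against Nr1d1, Arntl had r -0.34 (permutation p 0.0248, adjusted 0.0825) and rho -0.39 (permutation p 0.0213, adjusted 0.0709), which did not pass. The other 7 pairs, all with Clock or Rora, had r between -0.19 and 0.18. All members of a pair were read on the same array, with 1 scaling. These pairs were examined after the group results were known.

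**Figure D4:**
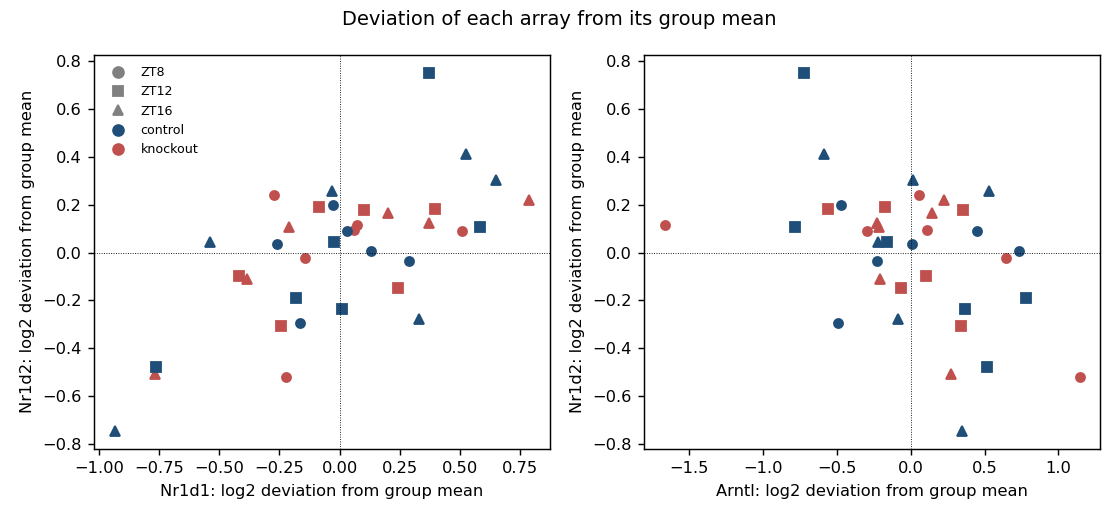
Deviation of each of the 36 arrays from its group mean in log2 units, for Nr1d2 against Nr1d1 (left) and Nr1d2 against Arntl (right); colour gives the genotype and shape the time. Points rise together on the left (r 0.65) and run opposite ways on the right (r -0.45).

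Genes with the nearest profile were found by the root mean square difference of centred group means over the 6 groups, among 13794 named genes above background on every array. For Nr1d1 the nearest were Rgs16 (0.84), Dbp (0.88), a PAR bZIP output factor, and Klf10 (1.31). For Nr1d2 they were Zbed5 (0.28), Ccne1 (0.41) and Rbm33 (0.50), and for Clock Akap17b (0.11), Zfp53 (0.12) and Hapln4 (0.12). For Arntl they were Hist2h3c2 (0.82), Hspa1a (1.04) and Ddit4 (1.09). The group means of Arntl spanned 5.75 and those of these genes 3.96, 3.02 and 3.13; Nr1d1 spanned 5.62 and its nearest genes 3.86, 5.98 and 3.10, so most of them moved less than the member. Rora, whose means spanned under 1, was not matched.

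Other genes of the clock were counted in the same way, on lists that partly share genes. Of 8 negative-limb genes (the Per and Cry repressors, Ciart, Bhlhe40 and Bhlhe41), 4 were lower in knockouts at ZT8, 4 at ZT12 and 7 at ZT16, none higher (17.4%, 20.8% and 19.1% of all probes were called lower), with a median of -1.40 at ZT16 against 0.01 over all probes. Ciart, a repressor of the CLOCK-BMAL1 pair, was lower in knockouts, with log2 differences of -1.18 at ZT8 and -2.93 at ZT12 (adjusted p 0.00267 and 4.9e-09). At ZT16 Ciart was above background in every control and no knockout, at least 13.9-fold lower (adjusted p 1.9e-14). Per2 differed by -0.90 at ZT12 and -2.26 at ZT16 (adjusted p 2.91e-05 and 1.47e-12), and Per3 by -0.93, -1.23 and -2.08 at the 3 times (adjusted p 0.000539, 3.4e-05 and 1.88e-09).

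Among the 4 genes of the PAR bZIP factors and their antagonist Nfil3, 1, 3 and 3 were lower at ZT8, ZT12 and ZT16. Of all probes 17.4%, 20.8% and 19.1% were called lower, so the ZT8 count is near its share and no result about the list. Tef differed by -1.23, Hlf by -1.37 and Dbp by -1.32 at ZT16 (adjusted p 3.06e-09, 6.53e-08 and 6.22e-05). Of 17 E-box targets, 7 of them also in the negative-limb list and 3 in the PAR bZIP list, 6, 9 and 14 were lower and 4, 2 and 1 higher. The shares of all probes called lower were those just given, and 16.2%, 18.4% and 18.7% were called higher. Wee1, a mitotic entry kinase, differed by -1.22 and -2.44 at ZT12 and ZT16 (adjusted p 4.1e-06 and 8.69e-12). The E-box list's median went from -0.11 at ZT8 to -1.23 at ZT16. Arntl and Clock did not pass at ZT16 on their brightest probes. Other probes did, with Arntl higher on the junction probe (0.75, limma adjusted p 0.0346) and Clock lower on the second (-0.31, adjusted p 0.00272). Whether the targets' levels follow those of Arntl or Clock was not tested.

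Of 7 ROR element targets, 3, 2 and 4 were lower and 1 higher at each time. Of all probes 17.4%, 20.8% and 19.1% were called lower and 16.2%, 18.4% and 18.7% higher. The counts of higher genes and the ZT12 count of lower genes are near these shares and are no result about the list. Elovl3, a fatty acid elongase, differed by -7.38, -7.24 and -6.67 (adjusted p 2.08e-09, 2.29e-09 and 9.93e-09), with 4 or 5 of 6 knockout arrays above background. G6pc, glucose 6-phosphatase, was the higher gene, by 0.88, 2.14 and 1.43 (adjusted p 0.033, 3.49e-06 and 0.00073). The F test across times called 6 of 8 negative-limb genes, 13 of 17 E-box targets and none of the 7 ROR element targets (7.24% of all probes); the difference between lists was not tested. Of the 7, 2 had an unadjusted p under 0.05, and 1 or 2 genes of the list were called under 8 alternatives. The negative-limb count in that test was 3 with normexp.

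Of 14 tested partners and cofactors (Rorb was not tested), 7, 9 and 7 were called at ZT8, ZT12 and ZT16, against 33.6%, 39.2% and 37.8% of all probes. Ppargc1a, a coactivator of the ROR proteins, was higher by 2.19, 2.20 and 1.89 (adjusted p 3.38e-10, 2.14e-10 and 3.94e-09). Hdac3, the deacetylase recruited by REV-ERB through NCOR1, differed by -0.45, -0.48 and -0.49 (adjusted p 8.85e-07, 2.91e-07 and 1.5e-07). Both had no overlap between genotypes at any time. Tbl1xr1, a subunit of the NCOR1 complex, differed by -0.27, -0.56 and -0.53 (adjusted p 0.0178, 9.77e-06 and 2.13e-05). Of 10 kinases and ubiquitin ligases of the clock, 2, 4 and 4 were called, shares near or under those of all probes and so no result about the list; the genes with the smallest p were Prkaa1 (-0.30, -0.28 and -0.50; adjusted p 0.00558, 0.00615 and 1.58e-05), Btrc (0.52 at ZT16, adjusted p 0.00013) and Csnk1d (0.27 at ZT12, adjusted p 0.00115).

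**Figure D5:**
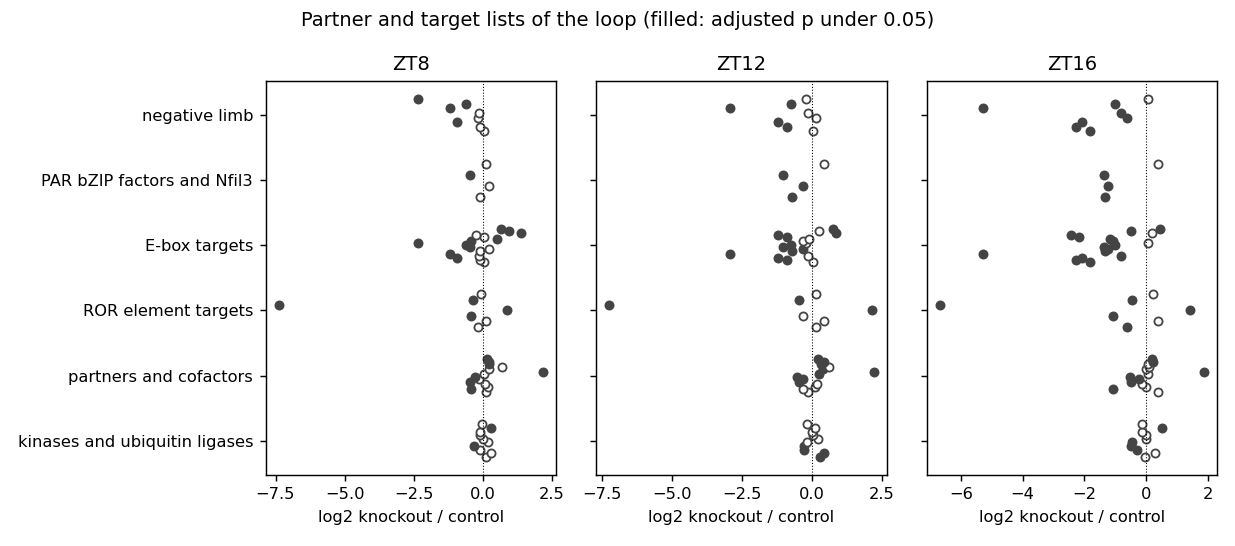
Log2 ratio of knockout to control at ZT8, ZT12 and ZT16 for each gene of 6 lists around the loop; each point is a gene, filled where the adjusted p was under 0.05, and some genes stand in more than 1 list. The negative limb shifts left between ZT8 and ZT16, and Elovl3 lies at -7.38 to -6.67 in the ROR element targets.

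Summed levels of markers of several cell types differed between genotypes in their group medians, and these differences were not tested. The summed level of 5 Kupffer cell markers (signal relative to the 75th percentile) had group medians of 24.0 to 30.8 in controls and 49.3 to 81.8 in knockouts, and that of 5 stellate cell markers 43.3 to 54.2 and 57.7 to 76.9. Single mice overlapped in places: at ZT16 Kupffer cell sums ran from 17.8 to 90.4 in controls and 43.1 to 194 in knockouts. The 6 hepatocyte markers summed to medians of 4964 to 5143 in controls and 4077 to 4390 in knockouts. Medians of 3 lymphocyte markers were also lower in knockouts, at 8.23 to 9.40 against 10.28 to 11.96 in controls. Of these markers, Cd79a was above background on no control array but on at least 1 knockout array at each time. The control sum thus rests on Cd3e and Ptprc. Medians of 4 endothelium markers were 19.3, 15.4 and 16.9 in controls and 19.5, 21.7 and 23.0 in knockouts at ZT8, ZT12 and ZT16. The summed level of 3 red cell markers had medians of 311, 176 and 254 in controls and 286, 319 and 468 in knockouts at ZT8, ZT12 and ZT16. The sum of 4 pancreas markers was 22.1 to 54.2 in controls and 8.28 to 13.7 in knockouts; 3 of them (Cpa1, Prss1 and Pnlip) were not above background on any array, so it rests on Cela1. The part of these shifts in the differences of the clock genes was not tested.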

How the data were processed

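Liver RNA of 36 mice was hybridised to 1-colour Agilent arrays, 1 array per mouse. Signals were extracted with Agilent Feature Extraction 10.10.1.1, per the submitters' processing notes. The deposited spot intensity is background-subtracted and detrended within the array, per the file headers, with no scaling between arrays; the spot flags (a score of 0 or 1 for being well above background) come from the same files. The authors also deposited a table of log2 values for 32801 probes whose sorted columns are identical; it was used as an alternative, and its steps are not given in the sources used here.

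From the intensities, log2 minus each array's 75th percentile was taken, outlier spots were left out, spots of a probe were averaged, and probes well above background on at least 6 of 36 arrays were kept (34769 of 56605 non-control probes; 91 had a missing value on some array). All were fitted together in limma 3.58.1 (R 4.3.3) with 6 group means and wash batch, a label with 3 levels that each hold all groups. P-values were Benjamini-Hochberg adjusted over all probes within a comparison, at a threshold of 0.05, and 95% intervals are limma's. A gene is called by its brightest probe. The number of arrays limits the precision. In simulated data of 34678 probes, 100 were shifted by 0.7 and 100 by 1.5 in the knockout ZT8 group. Of these, 62 and 94 were called, and 5 unshifted probes were called. In the measured data 33.6% of probes were called at ZT8, so the p-value adjustment was stricter in the simulation. The simulated shares therefore do not give the sensitivity of the tests here. A bound ("at least") sets the bright group's mean against the lowest signal well above background.

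Within groups, mice are the replicates. A wash batch holds 1 to 3 mice of each group, so a difference within a batch can rest on 1 mouse. No pairing by replicate number was seen: same-numbered arrays of different groups had a median correlation of 0.02 (-0.47 to 0.22 over 90 pairs). Differently numbered arrays had 0.003 (-0.32 to 0.50 over 450 pairs). A median over all probes cannot exclude a pairing, and a replicate block was among the alternatives. Named genes are all members, Insr, the genes of each list (at most 3) ranked first by p over the genotype comparisons, except a gene not reported here, and the 3 nearest profiles per member; other names were chosen after their values were seen. The members, lists and rules were chosen with earlier results of these data known. Correlations used 100000 permutations within groups (Python 3.11.15, numpy 2.4.6, scipy 1.17.1). Alternatives covered background correction, normalization, filter, batch, slide, replicate block, array weights, probe choice, the groups fitted and each array left out.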

Additional observations from a re-analysis of the deposited data

Results flagged for a closer look

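In 4 of 72 groups searched (12 probes, 6 mice each) 1 array lay far from the other 5 by Dixon's criterion, given as its gap to the nearest array over the group's range; chance gives about 1 in 20 groups, or 3.6 of 72. Knockout ZT8 replicate 3 was low on 2 Nr1d2 probes, at 2.89 against 3.39 to 3.65 (gap share 0.655) and at 2.65 against 3.13 to 3.37 (gap share 0.673). Control ZT8 replicate 5 was high on the Arntl junction probe, at -3.77 against -5.31 to -4.80 (gap share 0.666). Control ZT16 replicate 4 was low on the third Clock probe, at -1.34 against -1.12 to -0.997 (gap share 0.645).

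The genotype effect differed between times in limma's test of the difference itself, on the brightest probe of each gene. The third Arntl probe and the other tested Clock probes passed in neither interval below. From ZT8 to ZT12 the genotype effect moved by 1.89 for Arntl and 0.71 for Clock. From ZT8 to ZT16 it moved by 1.89 for Arntl, 0.73 for Clock, 1.29 for Nr1d1 and -1.05 for Nr1d2. Without knockout ZT8 replicate 3 the last 4 values were 2.19, 0.74, 1.22 and -1.15 (adjusted p 0.00102, 0.00014, 0.0275 and 0.0021).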

How the results depend on the processing

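No member probe reversed a called direction in any alternative run. Counts below are of the 5 tested members. The ZT8 count of 3 became 2 with normexp, no filter or the replicate block and 4, with Nr1d2 (higher) added, with only the groups compared; with quantile normalization and in the authors' table it was 3 with Nr1d2, higher, among them. For knockout against control the ZT12 count of 1 became 2 with normexp and 0 with quantile normalization, the authors' table, no filter, the mean of all probes or only the groups compared. The ZT16 count of 1 became 3 without wash batch, with slide as a random block or with array weights, and 2 with the replicate block, 1 probe per gene or only the groups compared. The control ZT12-to-ZT16 count of 4 became 1 with only the groups compared. The count of 2 for the genotype effect at ZT12 against ZT8 became 1 with normexp, the authors' table, no filter, the replicate block, the mean of all probes or only the groups compared, and the count of 0 for ZT16 against ZT12 became 1 with array weights. With probes above background on all 36 arrays, 3 members were left to test: 1 was called at ZT8 and 2 at ZT16 between genotypes, 1, 2 and 2 in controls (ZT12 against ZT8, ZT16 against ZT12, ZT16 against ZT8), 2 and 3 in knockouts (ZT12 and ZT16 against ZT8), 1 and 2 for the genotype effect at ZT12 and ZT16 against ZT8, and 2 by the F test. The cause was not tested beyond the fewer genes or samples of those settings. Only the groups compared gave no F test.

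With the replicate block, Nr1d1 at ZT8 was -0.66 (adjusted p 0.0572), Rora at ZT16 -0.22 (0.0332) and the Arntl genotype effect at ZT12 against ZT8 1.86 (0.0659); the Nr1d1 F test gave 0.0638. On other probes it added the second Rora probe at ZT8 (0.23, 0.0435) and the third Arntl probe for control ZT16 against ZT12 (1.28, 0.0405), and it changed no other call of a member probe.

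Leaving out 1 array gave counts of 2 to 3 at ZT8, 0 to 1 at ZT12 and 1 to 3 at ZT16 between genotypes. It gave 3 to 3, 3 to 4 and 4 to 4 in controls, 4 to 4, 3 to 3 and 4 to 5 in knockouts, 1 to 2, 0 to 1 and 4 to 4 for the genotype effect, and 3 to 4 by the F test. Of 5616 single-probe results without 1 array, 97 lost and 44 gained a call. Signal over background limits Arntl at ZT8 and Nr1d1 at ZT16.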
